A study of Mus musculus with 9 samples.

Results

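Complex I genes were examined on 9 expression arrays of total RNA from C57BL/6J mice. The tissue was anterior cingulate cortex. A probe set was taken as a member when the platform annotation gave it a single gene symbol beginning with Ndufa, Ndufb, Ndufc, Ndufs or Ndufv, and the probe set with the highest mean over the 9 arrays stood for each gene. This gave 45 probe sets for 42 genes out of 22180 genes tested, of which 34 carry the symbol of a subunit and 8 that of an assembly factor (Ndufaf1 to Ndufaf8). The members were chosen by name, with earlier results of these data known. Saline mice were injected intraperitoneally at ZT 5, where ZT counts hours from lights on. Ketamine mice (KT) received 3 mg/kg at the same time. Sleep-deprived mice (SD) were held awake for 12 h, from ZT 0 to ZT 12, by a bar turning slowly in a circular cage, and the labels mention no injection for them. Tissue from all mice was taken at ZT 13, with 3 arrays in each group, labelled as biological replicates. The labels used here state neither age nor sex, nor whether 1 array holds 1 mouse, and p-values measure the spread between these arrays.

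Complex I, or NADH:ubiquinone oxidoreductase, is the entry point of the mitochondrial respiratory chain: it takes electrons from NADH, passes them along a flavin and a row of iron-sulphur clusters to ubiquinone, and pumps protons across the inner membrane. The N module of its matrix arm oxidises NADH, the Q module reduces ubiquinone, and the proximal and distal parts of the membrane arm carry the proton pumps. Its core subunits have counterparts in bacteria, the accessory subunits surround them, and the assembly factors help to build the complex without remaining in it. Neurons depend on it for most of the ATP that restores ion gradients after firing.

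Members were bright on these arrays. Intensity, the deposited linear array value, is compared here only for 1 gene between arrays and never between genes as a level of RNA. Averaged over the 9 arrays, the subunits ran from 69.4 (Ndufb11) to 2720 (Ndufb9) with a median of 506, against 129 for the median gene tested. Of the 34 subunits, 31 were above that median gene and 12 were among the brightest 10% of genes. Among the 8 assembly factors, 7 were above the median gene and 0 were in the brightest 10%.

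The 9 arrays had like medians, from 97.7 to 106.2 over all probe sets, but different upper quartiles. Over genes, the 75th percentile was 319 to 321 on the saline arrays, 321, 304 and 283 on ketamine arrays 1, 2 and 3, and 312, 350 and 304 on sleep-deprived arrays 1, 2 and 3. Ketamine array 3 held the lowest of the 9 values for 24.7% of all genes and sleep-deprived array 2 the highest for 26.2%. The labels also carry a running number that is 1, 2 and 4 for saline, 6 to 8 for sleep deprivation and 10 to 12 for ketamine, so anything that followed this order and the group cannot be told apart. Cortical identity was borne out by the excitatory neuron markers, whose 5 measured members summed to between 11000 and 11500 on every array. Choroid plexus and ependymal markers summed to between 495 and 9310 on the saline arrays, 553 to 892 on the ketamine arrays and 427 to 856 on the sleep-deprived arrays. Of the 5 measured, 3 had their highest value of the 9 arrays on saline array 2 and 2 on ketamine array 2. No marker of any of the 8 cell types listed was at 0 on all arrays. In such bulk tissue, fewer cells of a type and less RNA per cell cannot be told apart.

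After ketamine, 33 of 34 subunits had a lower mean than after saline, against 54.6% of all genes tested, with small differences that no gene's adjusted test passed. The median subunit stood at -0.114 on the log2(intensity + 16) scale, a difference of -7.59%, while the median of all genes was -0.015. Single subunits ranged from -0.32 (Ndufb11) to 0.02 (Ndufb10, the 1 subunit with a higher mean, named after its value was seen). All 8 assembly factors had a lower mean, with a median of -0.124. With limma and Benjamini-Hochberg adjustment over 22180 genes, 0 genes of any kind were called at an adjusted p under 0.05 (background 0%), and the smallest adjusted p was 0.87. At an unadjusted p under 0.05, 1013 genes passed (4.57%), and the 3 subunits that passed, Ndufa2, Ndufs5 and Ndufab1, were among the 2.35% of genes that passed in the lower direction, while 0 subunits were among the 2.21% that passed in the higher direction. In 8 subunits the 3 ketamine arrays all lay below the 3 saline arrays, as they did in 7.89% of all genes. In 0 subunits did they all lie above, as they did in 6.48% of all genes.

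Genes as bright as the subunits shared much of this shift. Over the 4303 other genes whose mean intensity fell between the quartiles of the subunits' own intensities, 292 and 837, the median ketamine difference was -0.078 and 82% had a lower mean. In the lower direction 3.58% of them passed an unadjusted p under 0.05 by limma, a larger share than of all genes. Their share with arrays that did not overlap was not counted. When all arrays were first given the same distribution of values (quantile normalization), those genes came to a median of -0.003 with 51.3% lower, and the subunits to -0.044 with 29 of 34 lower. When each array's log2 values were centred on their 75th percentile, the genes of like intensity came to -0.001 with 50.3% lower, and the subunits to -0.036 with 23 of 34 lower. The subunit median therefore kept its sign under both and was smaller than in the deposited values. Relative to the saline mean, after that centring the median subunit was at 0.095, -0.045 and -0.038 on saline arrays 1, 2 and 3. On ketamine arrays 1, 2 and 3 it was at -0.035, -0.064 and -0.015. After quantile normalization the values were 0.097, -0.038 and -0.044, then -0.032, -0.077 and -0.042. Under both, saline arrays 2 and 3 lay within the ketamine range and only saline array 1 lay above it. In the deposited values, leaving out saline array 1 reduced the subunit median to -0.075, with 28 of 34 lower and 0 subunits at an unadjusted p under 0.05 by limma.

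**Figure D1:**
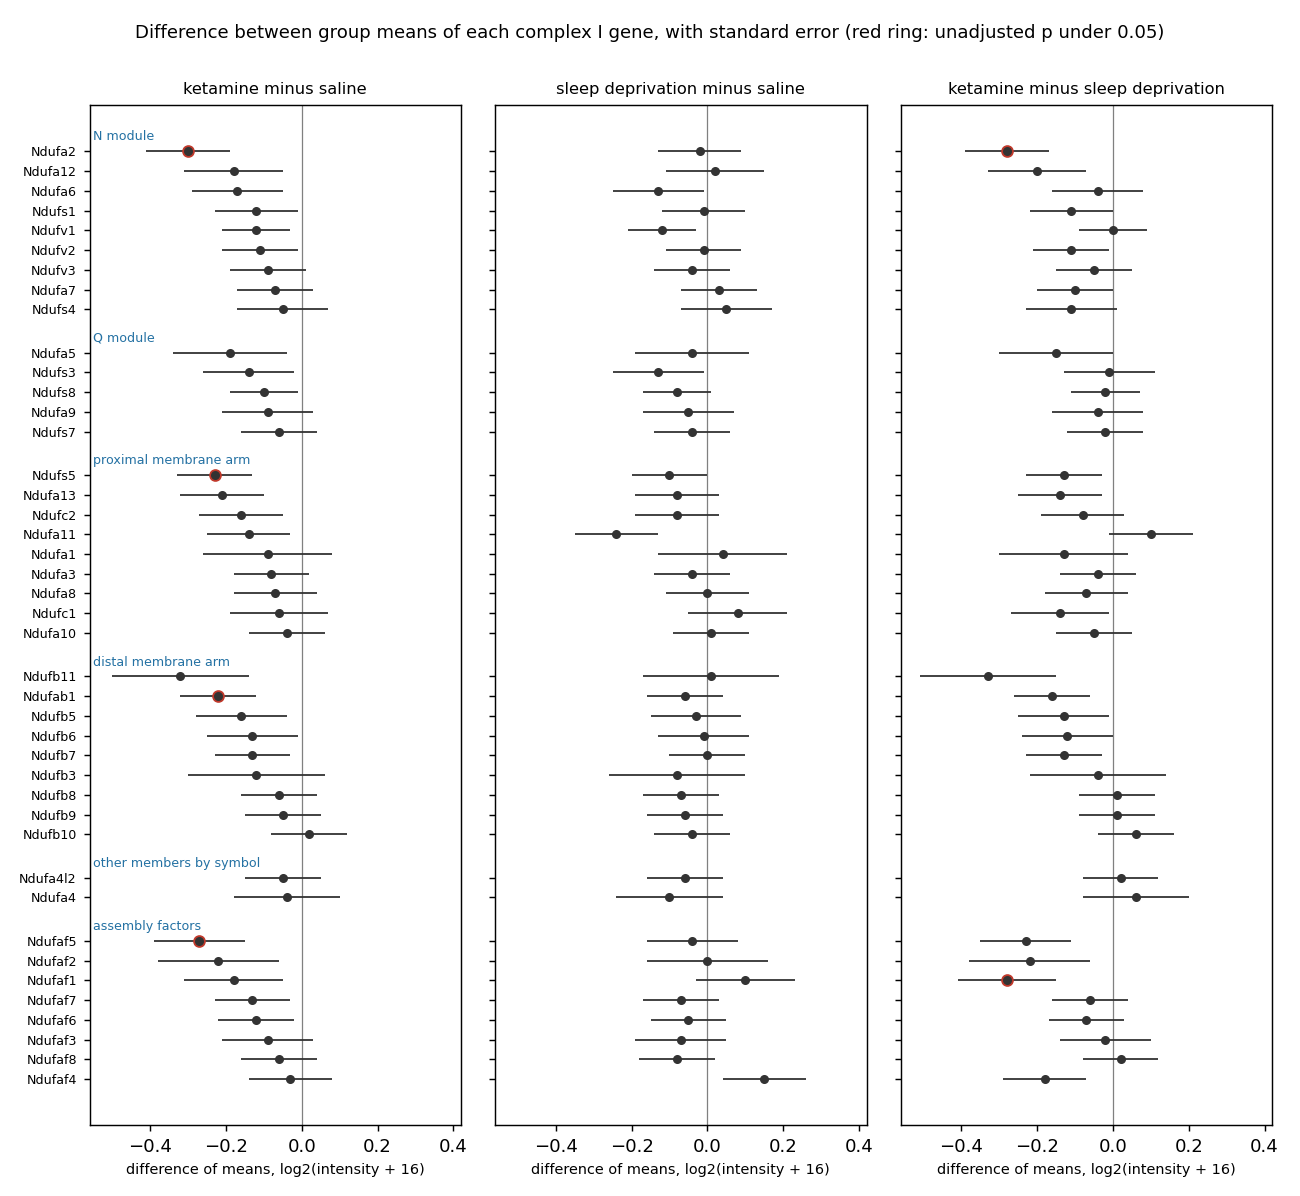
Difference between group means for each of the 42 complex I genes, on the log2(intensity + 16) scale, with its standard error as a bar and red rings for an unadjusted p under 0.05; genes are grouped by place in the complex and panels give the 3 comparisons. Nearly all points of the ketamine minus saline panel lie left of 0, but after centring on the 75th percentile 23 of 34 subunits do, and no adjusted p is under 0.05.

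**Figure D2:**
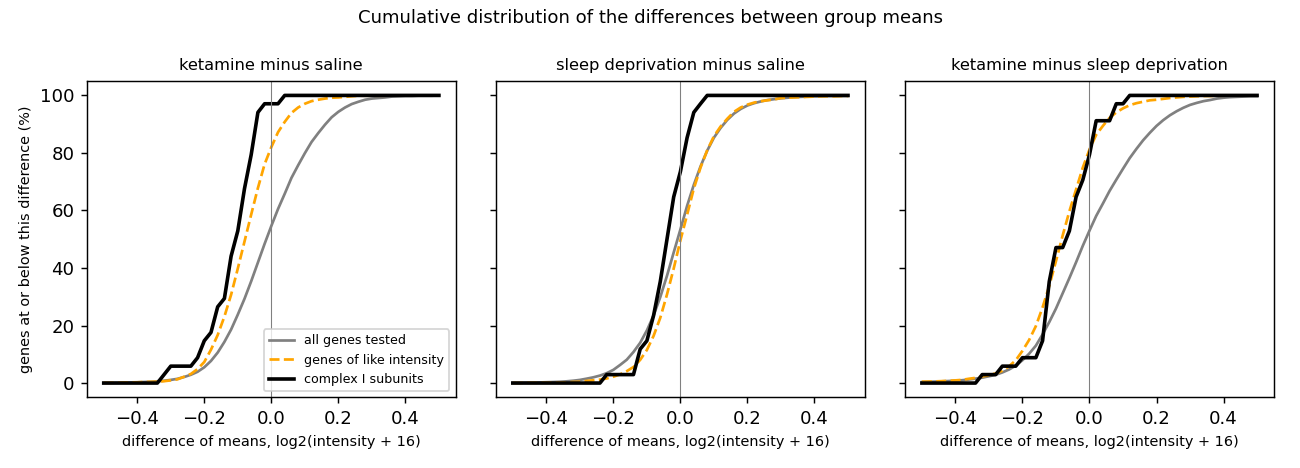
Share of genes (%) at or below each difference between group means, log2(intensity + 16), for all 22180 genes (grey), the 4303 genes of like intensity (orange, dashed) and the 34 subunits (black). In ketamine minus saline the subunit line lies left of both others, at 97.1% below 0 against 82% and 54.6%, at 73.5% against 49.6% and 53.4% in sleep deprivation minus saline, and at 79.4% against 81.2% and 53% in ketamine minus sleep deprivation.

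The arrays of a group differed from each other as much as the groups did. Relative to the mean of the saline arrays, the median subunit was at 0.101, -0.046 and -0.043 on saline arrays 1, 2 and 3. On the ketamine arrays it was at -0.028, -0.136 and -0.183. On the sleep-deprived arrays it was at -0.217, 0.111 and -0.032. Ketamine array 1 therefore lay within the saline range, ketamine arrays 2 and 3 lay below it, and the sleep-deprived arrays held both the lowest and the highest value of all 9. Sleep-deprived array 1 was the lowest of the 9 arrays for 18 of the 34 subunits and sleep-deprived array 2 the highest for 19. For comparison, these arrays held the lowest value of 16.3% and the highest of 26.2% of all genes.

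On ketamine array 3, the genes of like intensity were at -0.169, close to the subunits at -0.183, and after quantile normalization the subunits there were at -0.042. On sleep-deprived array 1 those genes were at -0.03 against -0.217 for the subunits, which stayed at -0.194 after quantile normalization. That array was also low in oligodendrocyte markers, whose 5 measured members had a median of -0.486 there, against 0.502 and -0.291 on ketamine arrays 2 and 3. Summed, these markers ran from 2860 to 3520 on saline arrays, 2500 to 4410 on ketamine arrays and 2540 to 3230 on sleep-deprived arrays. Astrocyte markers summed to 7010 to 7530, 6480 to 7280 and 6670 to 7580 in the same order, and all 6 had a lower mean after ketamine than after saline. Endothelial markers summed to 1710 to 1880, 1540 to 1890 and 1890 to 2020. The part of cell makeup in the subunit values was not tested.

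**Figure D3:**
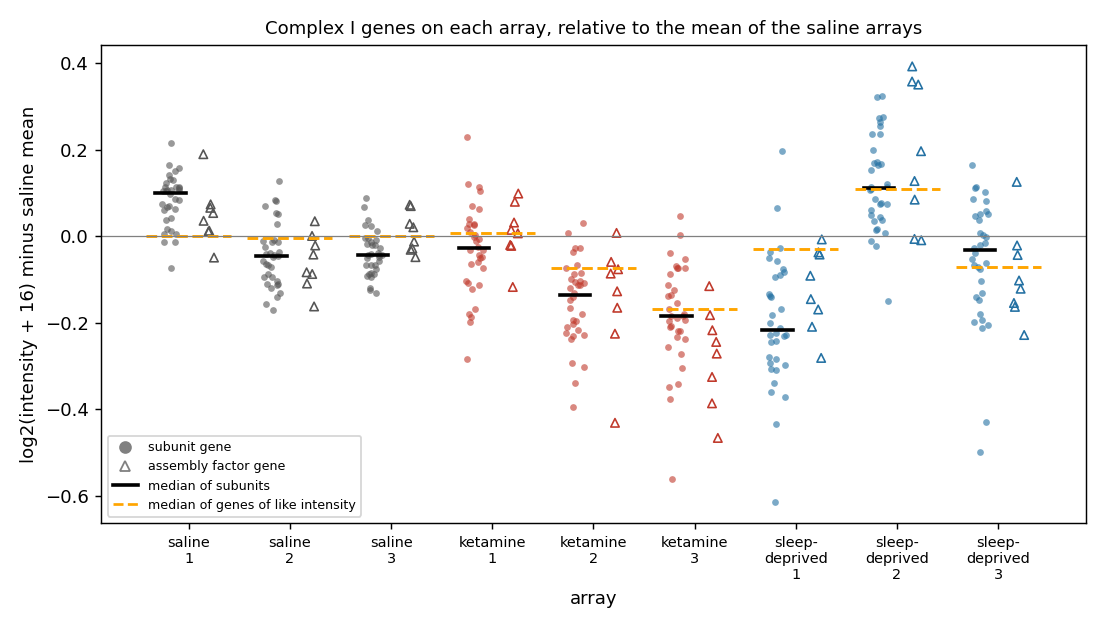
Each complex I gene on each of the 9 arrays, as log2(intensity + 16) minus its saline mean: dots are the 34 subunits, triangles the 8 assembly factors, black lines the subunit median and dashed orange lines the median of the 4303 genes of like intensity. Sleep-deprived arrays 1 and 2 hold the lowest and highest subunit medians, -0.217 and 0.111 against -0.03 and 0.109 for the dashed line.

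**Figure D4:**
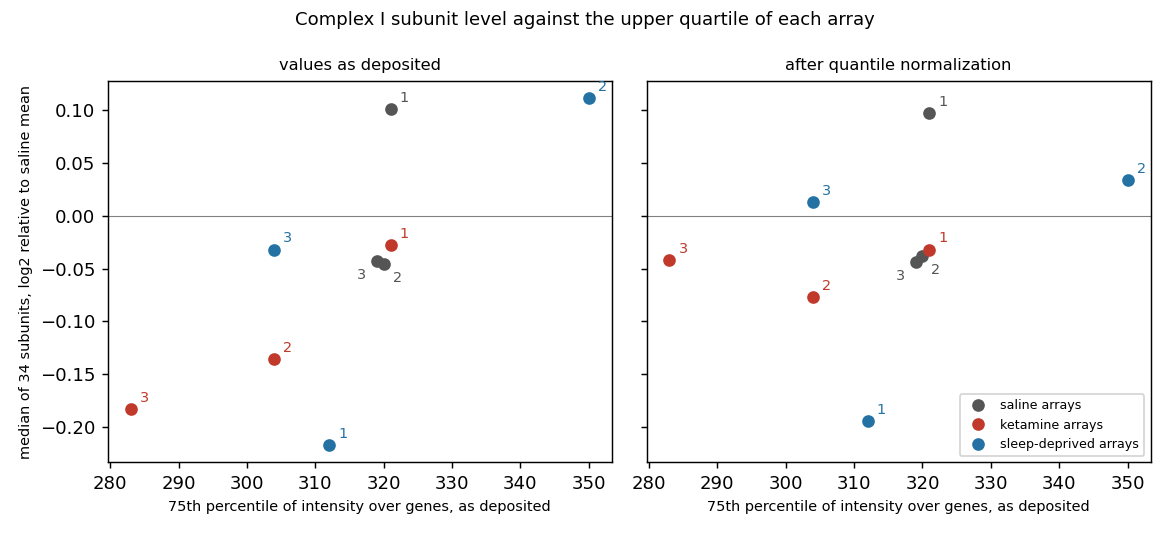
Median of the 34 subunits relative to the saline mean (log2) against the 75th percentile of intensity over genes on the same array, for values as deposited (left) and after quantile normalization (right); colours give the group and digits the array. Ketamine arrays 2 and 3 move from -0.136 and -0.183 on the left to -0.077 and -0.042 on the right, and sleep-deprived array 1 from -0.217 to -0.194.

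Subunits varied together over the 9 arrays. Each subunit's values were correlated with the mean of the other subunits, with a median r of 0.815 and 29 of 34 above 0.5. The same mean had a median r of 0.548 with the genes of like intensity and 0.0881 with all genes outside the complex. These points share the arrays and each array's scale, so the values are descriptions over 9 arrays. The assembly factors followed the subunits as closely, with a median r of 0.833. Ndufb5, an accessory subunit of the distal membrane arm, was closest to the others at 0.983. Ndufs5, at -0.0261, and Ndufa4l2, at 0.0494, did not track them.

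Promoters of the members are shown as sequence, and whether their motifs bear on the movement over arrays was not tested. RefSeq start sites on GRCm38.p6 were available for 30 subunits and 7 assembly factors and gave windows of 250 bases before to 50 after the start, searched on both strands. Ndufa2, Ndufa4l2, Ndufb9, Ndufs1 and Ndufaf6 were not matched. The NRF1 motif (GCGCA and GCGC with any 1 base between) was in 5 of the 30 subunit windows (16.7%) and 2 of the 7 assembly factor windows (28.6%), against 6.74% of 16918 genes tested. The YY1 motif AAGATGGC was in 6 (20.0%) and 1 (14.3%), against 3.33%. The ETS motif CCGGAAG was in 4 (13.3%) and 2 (28.6%), against 11.7%, and the SP1 motif GGGCGG in 14 (46.7%) and 6 (85.7%), against 46.8%. A match describes the letters of the window only.

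All 7 YY1 matches lay on the coding strand between 11 and 39 bases after the start, and their letters include ATG, the letters of a start codon. These sites are shown as 28 bases, 5′ to 3′ on the gene's strand, with the motif in capitals. The bases around the motif differ from gene to gene.
Ndufa3 (GRCm38.p6, chr7:3617385-3617412, plus strand): cgccaagaacAAGATGGCcgggagtaag
Ndufa9 (GRCm38.p6, chr6:126849098-126849125, minus strand): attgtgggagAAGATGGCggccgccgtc
Ndufaf8 (GRCm38.p6, chr11:120098934-120098961, plus strand): ggcagggcccAAGATGGCggcgccctcg
Ndufb8 (GRCm38.p6, chr19:44555393-44555420, minus strand): aaccgcggagaaggtgAAGATGGCtgcc
Ndufc1 (GRCm38.p6, chr3:51408916-51408943, minus strand): cctgcggaacAAGATGGCgccgtccgta
Ndufs4 (GRCm38.p6, chr13:114388045-114388072, minus strand): gtttgcctacaggAAGATGGCggcggtc
Ndufs7 (GRCm38.p6, chr10:80249463-80249490, plus strand): ggccgaggccAAGATGGCggcgctggcg

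Upstream sequences of 3 further members show the other motifs. They cover the 250 bases before the start, 5′ to 3′ on the gene's strand, with NRF1, ETS and SP1 motifs in capitals. Ndufs5 holds a single NRF1 motif, Ndufs3 holds SP1 motifs of which 1 runs into an ETS motif, and Ndufaf4 holds an NRF1 motif followed by overlapping SP1 motifs.
Ndufs5 (GRCm38.p6, chr4:123718187-123718436, minus strand): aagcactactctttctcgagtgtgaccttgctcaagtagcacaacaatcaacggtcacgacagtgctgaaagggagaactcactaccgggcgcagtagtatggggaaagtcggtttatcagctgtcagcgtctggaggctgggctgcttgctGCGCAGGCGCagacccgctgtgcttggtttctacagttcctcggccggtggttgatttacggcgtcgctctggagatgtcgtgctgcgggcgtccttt
Ndufs3 (GRCm38.p6, chr2:90904722-90904971, minus strand): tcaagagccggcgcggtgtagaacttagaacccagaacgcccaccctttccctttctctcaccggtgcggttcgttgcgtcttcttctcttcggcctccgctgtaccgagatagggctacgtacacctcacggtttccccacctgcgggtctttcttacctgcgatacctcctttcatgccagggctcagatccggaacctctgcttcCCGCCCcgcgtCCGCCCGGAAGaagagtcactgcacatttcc
Ndufaf4 (GRCm38.p6, chr4:24897833-24898082, plus strand): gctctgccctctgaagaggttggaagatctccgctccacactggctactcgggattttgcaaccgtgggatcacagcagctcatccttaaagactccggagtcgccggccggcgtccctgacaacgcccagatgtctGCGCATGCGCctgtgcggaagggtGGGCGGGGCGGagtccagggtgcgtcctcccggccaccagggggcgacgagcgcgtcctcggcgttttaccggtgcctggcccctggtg

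In the N module, all 9 measured subunits had a lower mean after ketamine than after saline, with a median of -0.116. After quantile normalization 8 of 9 did, with a median of -0.053, and after centring on the 75th percentile 7 of 9, with -0.038. Ndufa2, a small accessory subunit with a thioredoxin fold, had the largest difference of the module. Its intensity was 344, 340 and 299 on the saline arrays, 289, 245 and 255 on the ketamine arrays, and 295, 378 and 297 on the sleep-deprived arrays. Every ketamine array lay below every array of both other groups, while the sleep-deprived arrays spanned the saline range. Ketamine minus saline was -0.30 ± 0.11 (SE), or -18.8%, with a 95% interval of -0.54 to -0.06, an unadjusted p of 0.0191 and an adjusted p of 0.87 by limma. The unadjusted p was 0.0184 after quantile normalization and between 0.0504 and 0.0752 without saline array 1 or 2 or ketamine array 2 or 3.

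The core subunits of the N module carry the electrons from NADH. Ndufv1, which binds NADH and the flavin, was at 758, 685 and 672 after saline, 646, 647 and 645 after ketamine, and 606, 699 and 635 after sleep deprivation. The ketamine values lay within 2 units of each other and all below saline, with a difference of -0.12 ± 0.09, and the sleep-deprived values overlapped both groups. Ndufs1, the largest subunit, which holds several iron-sulphur clusters, was at 754, 688 and 688 after saline, 745, 655 and 571 after ketamine and 666, 766 and 684 after sleep deprivation. Ketamine arrays 2 and 3 lay below every other array, and ketamine array 1 lay within the ranges of both other groups. Its ketamine difference was -0.12 ± 0.11. Ndufv2, a further iron-sulphur subunit, was at 987, 871 and 849 after saline, 918, 784 and 800 after ketamine and 819, 951 and 924 after sleep deprivation. Its groups overlapped too, with a ketamine difference of -0.11 ± 0.10. Among the accessory subunits, the ketamine arrays also lay wholly below saline in Ndufv3 (285, 267 and 280 against 293, 293 and 301) and Ndufa7 (198, 191 and 194 against 207, 210 and 199), by -0.09 and -0.07. These differences were no larger than their standard errors of 0.10, and that of Ndufa7 was 0.00 after centring on the 75th percentile.

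In the Q module, where electrons reach ubiquinone, all 5 measured subunits had a lower mean after ketamine, with a median of -0.098, and in 0 of them did the groups separate. The median was -0.031 after quantile normalization and -0.021, with 4 of 5 lower, after centring on the 75th percentile. Ndufs3, a core subunit whose promoter holds the SP1 and ETS motifs printed here, was at 597, 513 and 551 after saline, 556, 476 and 473 after ketamine and 427, 567 and 529 after sleep deprivation. The lowest value was on sleep-deprived array 1, and all groups overlapped, with a ketamine difference of -0.14 ± 0.12. Ndufs7 and Ndufs8 hold the last iron-sulphur clusters before ubiquinone. Ndufs7 was at 1260, 1110 and 1140 after saline, 1150, 1150 and 1080 after ketamine and 997, 1260 and 1170 after sleep deprivation. The sleep-deprived arrays held the lowest value and matched the highest, and the ketamine difference of -0.06 ± 0.10 turned to 0.02 after centring on the 75th percentile. Ndufs8 was at 808, 766 and 780 after saline, 728, 789 and 683 after ketamine and 769, 772 and 682 after sleep deprivation. Its groups overlapped, at -0.10 ± 0.09.

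In the proximal membrane arm, all 9 subunits had a lower mean after ketamine, with a median of -0.089. After quantile normalization 7 of 9 did, with a median of -0.034, and after centring on the 75th percentile 6 of 9, with -0.011. Ndufs5, an accessory subunit on the intermembrane-space face of the arm, was at 99.2, 98.4 and 104 after saline, 79.6, 83.1 and 86.7 after ketamine and 106, 88.8 and 84.9 after sleep deprivation. The ketamine and saline arrays did not overlap, while sleep-deprived array 1 was above both groups and the other sleep-deprived arrays lay near the top of the ketamine range. Its ketamine difference was -0.23 ± 0.10, with a 95% interval of -0.44 to -0.03, an unadjusted p of 0.0294 and an adjusted p of 0.87 by limma. The 2 rescalings moved it in opposite directions. After quantile normalization it was -0.28 with an unadjusted p of 0.0104 by limma. After centring on the 75th percentile it was -0.15 with an unadjusted p of 0.189. Leaving out saline array 1, 2 or 3 or ketamine array 1 or 2 gave an unadjusted p between 0.0527 and 0.0903. This gene was dim for the complex, below the median gene, and was the subunit least correlated with the others.

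Ndufa13, also known as GRIM-19, a membrane-arm subunit that is also reported to bind STAT3, was at 742, 681 and 643 after saline, 602, 589 and 583 after ketamine and 564, 745 and 656 after sleep deprivation. No ketamine array reached the saline range, and the sleep-deprived arrays ranged from below to above both. Ketamine minus saline was -0.21 ± 0.11, with an unadjusted p of 0.0679 by limma, and -0.14 after quantile normalization. Without sleep-deprived array 1 or 2, which enter only the shared estimate of spread, its unadjusted p was 0.0433 or 0.0375. The remaining members of this part of the arm had smaller ketamine differences, from -0.04 (Ndufa10) to -0.16 (Ndufc2).

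In the distal membrane arm, 8 of 9 measured subunits had a lower mean after ketamine, with a median of -0.127. After quantile normalization 7 of 9 did, with a median of -0.044, and after centring on the 75th percentile 6 of 9, with -0.050. Ndufab1 is the mitochondrial acyl carrier protein, which serves fatty acid synthesis in the matrix and sits in both arms of complex I. It was at 231, 237 and 217 after saline, 211, 202 and 172 after ketamine and 223, 230 and 206 after sleep deprivation. Ketamine lay wholly below saline and, apart from array 1, below sleep deprivation. The difference was -0.22 ± 0.10, with an unadjusted p of 0.0455, an adjusted p of 0.87 by limma, and an unadjusted p of 0.197 without ketamine array 3. The unadjusted p was also above 0.05 without saline array 1, 2 or 3, without ketamine array 2 and when sleep-deprived array 1 was left out, from 0.0513 to 0.127, and 0.0924 after centring on the 75th percentile.

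Ndufb11, an X-linked accessory subunit, had the largest ketamine difference of all subunits, with an error among the largest. Its intensity was 74.4, 82.4 and 66.2 after saline, 63.5, 61.1 and 45 after ketamine and 87.3, 96.6 and 47.8 after sleep deprivation. Ketamine lay wholly below saline, while the sleep-deprived arrays ranged from nearly the lowest to the highest value. The difference of -0.32 ± 0.18 had an unadjusted p of 0.0925 by limma, and this was the dimmest subunit of all. Ndufb10, another accessory subunit, was the exception of the arm at 349, 300 and 328 after saline and 332, 332 and 326 after ketamine, a difference of 0.02 ± 0.10.

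Ndufa4 and its paralog Ndufa4l2 carry complex I names, though NDUFA4 is now counted with complex IV and NDUFA4L2 is best known as a hypoxia-induced gene. Ndufa4 was at 1970, 1620 and 1690 after saline, 1900, 1630 and 1600 after ketamine and 1300, 1850 and 1810 after sleep deprivation. Its lowest value was on sleep-deprived array 1, and its ketamine difference of -0.04 ± 0.14 turned to 0.04 after centring on the 75th percentile. Ndufa4l2 was at 84.7, 96.4 and 89.1 after saline, 82, 84.8 and 93.4 after ketamine and 85.9, 93.3 and 77.6 after sleep deprivation. Its groups overlapped, with a difference of -0.05 ± 0.10 that turned to 0.03 under the same centring.

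**Figure D5:**
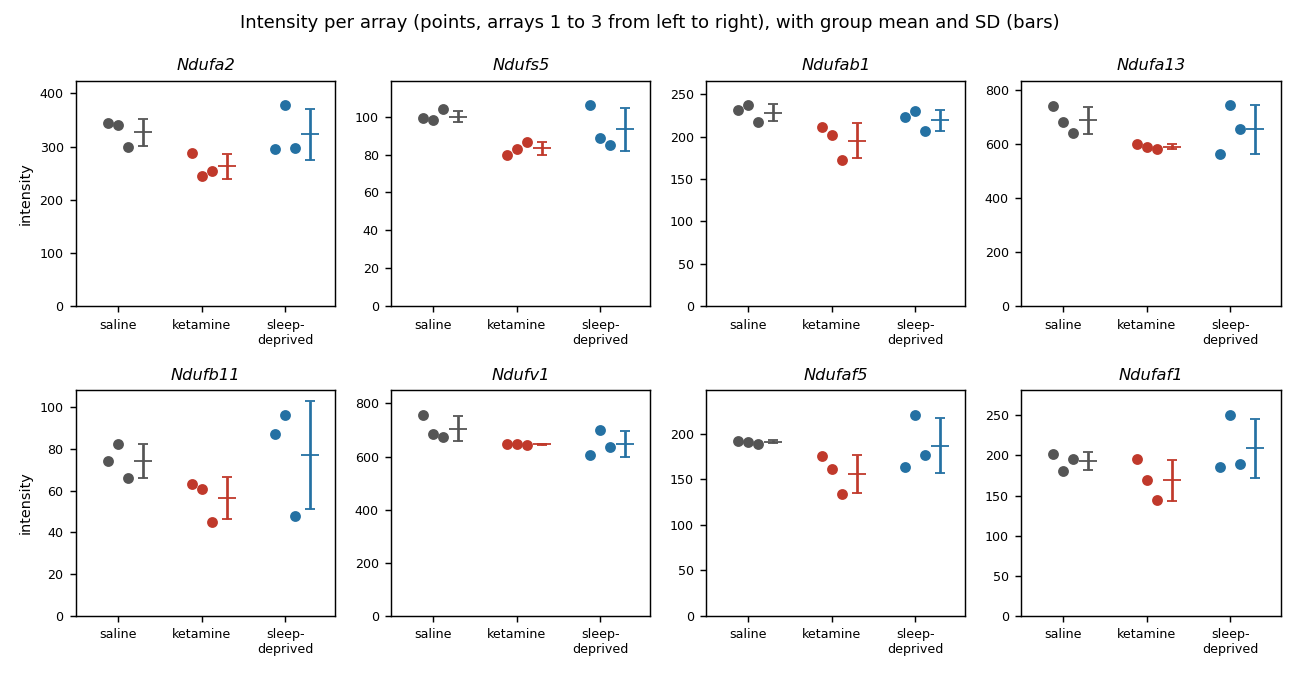
Intensity on each array (dots; arrays 1 to 3 from left to right within a group) with the group mean and SD (bars, n = 3) for 6 subunits and 2 assembly factors; each axis starts at 0. In Ndufa2 the ketamine arrays (245 to 289) lie below all others, and in Ndufaf1 and Ndufaf5 sleep-deprived array 2 (251 and 221) is the highest of the 9.

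Among the assembly factors, all 8 had a lower mean after ketamine, 7 of 8 after quantile normalization and 6 of 8 after centring on the 75th percentile, with medians of -0.124, -0.087 and -0.046. Ketamine array 3 was the lowest of the 9 arrays for 6 of the 8 genes and sleep-deprived array 2 the highest for 5. Without ketamine array 3 the median was -0.057.

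Ndufaf5, which hydroxylates an arginine of Ndufs7 early in assembly, was at 192, 191 and 189 after saline, 175, 161 and 134 after ketamine and 163, 221 and 177 after sleep deprivation. The saline arrays were nearly equal and all above ketamine, and the sleep-deprived arrays ran from within the ketamine range to above saline. The ketamine difference was -0.27 ± 0.12, with an unadjusted p of 0.0400 and an adjusted p of 0.87 by limma, and an unadjusted p of 0.183 without ketamine array 3. It also rose to between 0.0571 and 0.083 without saline array 1, 2 or 3 or ketamine array 2, to 0.0532 with an offset of 1 and to 0.0510 after centring on the 75th percentile. Ndufaf8, the partner of Ndufaf5, was at 199, 179 and 195 after saline, 192, 179 and 175 after ketamine and 190, 190 and 161 after sleep deprivation, with overlapping groups and a ketamine difference of -0.06 ± 0.10.

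Ndufaf1, which acts with Ecsit and Acad9 on the membrane arm, was at 202, 180 and 196 after saline, 195, 170 and 144 after ketamine and 186, 251 and 189 after sleep deprivation. Ketamine array 3 was the lowest and sleep-deprived array 2 the highest, with the other arrays overlapping. Its difference from saline was -0.18 ± 0.13. Ndufaf2, a paralog of Ndufa12 that binds a late assembly intermediate, was at 91.5, 93.6 and 101 after saline, 103, 66.5 and 72.8 after ketamine and 75.5, 130 and 86.3 after sleep deprivation. The treated groups each spread far wider than saline, and the ketamine difference was -0.22 ± 0.16. It was -0.11 without ketamine array 2, -0.38 without ketamine array 1 and -0.14 after centring on the 75th percentile.

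Ndufaf3 and Ndufaf4 act together on the Q module. Ndufaf3 was at 536, 416 and 458 after saline, 479, 443 and 400 after ketamine and 414, 513 and 416 after sleep deprivation, and Ndufaf4 at 363, 369 and 347, then 381, 362 and 315, then 350, 463 and 394. Both overlapped between groups, with ketamine differences of -0.09 ± 0.12 and -0.03 ± 0.11, of which the second turned to 0.05 after either rescaling. Ndufaf7, a methyltransferase that acts in assembly, was at 432, 397 and 401 after saline, 403, 374 and 343 after ketamine and 369, 436 and 366 after sleep deprivation (-0.13 ± 0.10). Ndufaf6, needed early in assembly, was at 155, 138 and 159, then 148, 144 and 122, then 140, 150 and 145 (-0.12 ± 0.10). In both genes ketamine array 3 was the lowest of all.

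Sleep deprivation against saline gave a smaller subunit median than ketamine in the deposited values. This order held when each array was centred on its median (-0.039 against -0.121). It did not hold after quantile normalization or centring on the 75th percentile. Of the 34 subunits, 25 had a lower mean against 53.4% of all genes, with a median of -0.041 and a range of -0.24 to 0.08. The genes of like intensity had a median of 0.001 with 49.6% lower. With limma, 0 genes were called at an adjusted p under 0.05 (background 0%) and 781 passed an unadjusted p under 0.05 (3.52%), 1.72% lower and 1.8% higher, among them 0 of the 34 subunits. In 0 subunits did the sleep-deprived arrays lie wholly below or wholly above saline, as they did in 3.54% and 3.57% of all genes. The sign rested on single arrays: the median was 0.042 with 11 lower without sleep-deprived array 1, -0.113 with 34 lower without sleep-deprived array 2, and 0.006 with 16 lower without saline array 1. It was -0.047 after both quantile normalization and centring on the 75th percentile, where the ketamine median was -0.044 and -0.036.

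Ndufa11, a membrane subunit next to complex III in respiratory supercomplexes, had the smallest unadjusted p of this comparison. It was at 581, 551 and 538 after saline, 447, 563 and 410 after sleep deprivation and 483, 546 and 487 after ketamine. Sleep-deprived arrays 1 and 3 lay below every saline array and array 2 within their range. The sleep deprivation difference was -0.24 ± 0.11, with an unadjusted p of 0.0544 and an adjusted p of 1 by limma. The unadjusted p was 0.0197 after quantile normalization 0.222 without sleep-deprived array 3, but 0.00263 when array 2 of that group was left out, where the difference was -0.37. A second and dimmer probe set of the gene, with a mean of 122, had a difference of -0.08.

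The next 3 subunits in that order were far from the threshold. Ndufv1 was at -0.12 ± 0.09, with sleep-deprived arrays 1 and 3 below saline and array 2 within it. Ndufa6, an accessory subunit that docks the acyl carrier protein in the N module, was at 971, 834 and 821 after saline and 687, 884 and 828 after sleep deprivation, which overlapped (-0.13 ± 0.12). Ndufs3 was at -0.13 ± 0.12, and the low value was again on array 1. The core subunits Ndufs1, Ndufs7, Ndufs8 and Ndufv2 were at -0.01, -0.04, -0.08 and -0.01, each within 1 SE of 0. Ndufab1, Ndufa4 and Ndufa4l2 were at -0.06, -0.10 and -0.06.

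Of the assembly factors, 6 of 8 had a lower mean after sleep deprivation than after saline, with a median of -0.042 that turned to 0.015 without sleep-deprived array 1. Ndufaf4 had the highest difference, 0.15 ± 0.11, followed by Ndufaf1 at 0.10 ± 0.13. In both genes sleep-deprived array 2 gave the highest value. The other 6 were between -0.08 (Ndufaf8) and 0.00 (Ndufaf2).

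Ketamine and sleep deprivation were then compared directly, without the saline arrays' mean. Of the 34 subunits, 27 had a lower mean after ketamine, against 53% of all genes, with a median of -0.073, which came to -0.017 (19 lower) after quantile normalization and turned to 0.010 (16 lower) after centring on the 75th percentile. It also turned, to 0.007 with 15 lower, without sleep-deprived array 2, was -0.147 without sleep-deprived array 1 and -0.043 without ketamine array 3. The genes of like intensity were at -0.082 with 81.2% lower. With limma, 0 genes were called (background 0%) and 2103 passed an unadjusted p under 0.05 (9.48%). Ndufa2 was the 1 subunit among the 4.38% of genes that passed in the lower direction, and the 1 subunit whose ketamine arrays lay wholly below the sleep-deprived arrays, as in 5.54% of all genes. In the higher direction 0 subunits passed (5.1% of all genes) and 0 lay wholly above (4.53%).

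For Ndufa2 the ketamine minus sleep deprivation difference was -0.28 ± 0.11, with an unadjusted p of 0.0286 and an adjusted p of 0.488. It was -0.17 without sleep-deprived array 2, with an unadjusted p of 0.138, and that p was 0.103 without ketamine array 2, 0.0699 without ketamine array 3 and 0.0535 after centring on the 75th percentile. Ndufb11 was at -0.33 ± 0.18 and Ndufab1 at -0.16 ± 0.10, with overlapping arrays in both. The Ndufb11 value ran from -0.17 without sleep-deprived array 2 to -0.58 without sleep-deprived array 3, where the adjusted p by limma was 0.0536, and was -0.21 without ketamine array 3. Ndufa12, the N-module paralog of Ndufaf2, was at 647, 590 and 558 after ketamine, 553, 823 and 717 after sleep deprivation and 733, 633 and 668 after saline. Sleep-deprived array 1 was the lowest and array 2 the highest of its 9 values, with a difference of -0.20 ± 0.13. Ndufs1 and Ndufv2 were both at -0.11, Ndufs3 at -0.01, Ndufs7 and Ndufs8 at -0.02, and Ndufv1 at 0.00. Ndufs3, Ndufs7 and Ndufs8 turned to 0.07 after centring on the 75th percentile. Ndufa4 and Ndufa4l2 were at 0.06 and 0.02.

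Among the assembly factors, 7 of 8 had a lower mean after ketamine than after sleep deprivation, with a median of -0.124 that was -0.041 with 4 of 8 lower after centring on the 75th percentile, and -0.034 without sleep-deprived array 2. Ndufaf1 was at -0.28 ± 0.13, with an unadjusted p of 0.0476 and an adjusted p of 0.527 by limma. Without sleep-deprived array 2 it was at -0.15 and without ketamine array 3 at -0.17, with unadjusted p-values of 0.234 and 0.211. The unadjusted p was also above 0.05 without any 1 saline array (0.0540 to 0.0589), without ketamine array 2 (0.0797), with array weights (0.0620), with an offset of 1 (0.0670), in a fit of these 2 groups alone (0.0672) and after centring on the 75th percentile (0.0685). Ndufaf5 was at -0.23 ± 0.12, but at -0.11 without sleep-deprived array 2, -0.13 without ketamine array 3 and -0.15 after centring on the 75th percentile. Ndufaf4 was at -0.18 ± 0.11. Ndufaf2, Ndufaf3, Ndufaf6, Ndufaf7 and Ndufaf8 were at -0.22, -0.02, -0.07, -0.06 and 0.02.

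Assembly factors without the Nduf symbol were taken from a separate list, with 11 of 12 measured. After ketamine 9 of the 11 had a lower mean than after saline, with a median of -0.064 that turned to 0.014 after centring on the 75th percentile, and 0 had an unadjusted p under 0.05. Aifm1, an inner-membrane flavoprotein needed for import of complex I subunits, was at 269, 236 and 218 after saline, 233, 201 and 174 after ketamine and 202, 261 and 216 after sleep deprivation. The groups overlapped, with a ketamine difference of -0.24 ± 0.12. Acad9 and Timmdc1, which act on the membrane arm, were at -0.16 ± 0.12 and -0.13 ± 0.11. The 2 with a higher mean were Foxred1 at 0.01 and Dmac1 at 0.03, chosen after their values were seen. After sleep deprivation 5 of 11 had a lower mean than after saline, with a median of 0.006.

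Of the transcription factors and coactivators known to act on respiratory chain genes, 7 of 8 had a lower mean after ketamine than after saline (6 of 8 after either rescaling) and 1 of 8 after sleep deprivation than after saline, with medians of -0.112 and 0.058. Both comparisons share the saline arrays. Gabpa, the DNA-binding subunit of GA-binding protein, which recognises ETS motifs like the one printed for Ndufs3, was at 215, 217 and 209 after saline, 206, 178 and 150 after ketamine and 200, 263 and 214 after sleep deprivation. All ketamine arrays lay below saline, and ketamine array 1 lay within the sleep-deprived range. Its difference was -0.26 ± 0.12 from saline and -0.32 ± 0.12 from sleep deprivation, with an unadjusted p of 0.0200 and an adjusted p of 0.478 by limma.

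Nrf1, whose motif is printed for Ndufs5 and Ndufaf4, was at 150, 158 and 151 after saline, 145, 145 and 142 after ketamine and 156, 175 and 162 after sleep deprivation. The ketamine arrays lay below both other groups, by -0.08 ± 0.09 and -0.18 ± 0.09, and after centring on the 75th percentile the differences were 0.00 and -0.09. Yy1 was at 525, 559 and 504 after saline, 488, 477 and 432 after ketamine and 549, 502 and 508 after sleep deprivation. Here too the ketamine arrays lay below both groups, by -0.18 ± 0.09 from saline and -0.16 ± 0.09 from sleep deprivation. After quantile normalization these were -0.10 and -0.06, and after centring on the 75th percentile -0.10 and -0.07. Ppargc1a, the coactivator that drives mitochondrial biogenesis, was at -0.10 ± 0.12 from saline with overlapping arrays. Esrra, the 1 factor with a higher mean after ketamine, was at 0.11 ± 0.09 and was chosen after its values were seen.

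Complexes III to V and the mitochondrial ribosome also had medians below 0 after ketamine under each scaling tried, while that of complex II changed sign. For complex II, 2 of 4 genes had a lower mean after ketamine than after saline, with a median of -0.012 that turned to 0.052 after quantile normalization. Complexes III, IV and V had medians of -0.142, -0.144 and -0.086, which were -0.065, -0.067 and -0.009 after centring on the 75th percentile. For complexes II to V together, 30 of 36 measured genes had a lower mean after ketamine than after saline, with a median of -0.107, and 22 of 36 after centring on the 75th percentile, with a median of -0.029. Their median was -0.057 for sleep deprivation against saline, also with 30 of 36 lower. For 68 mitochondrial ribosomal proteins, 65 had a lower mean after ketamine than after saline, with a median of -0.106, and 41 after that centring, with a median of -0.029. After sleep deprivation 31 of the 68 had a lower mean than after saline, with a median of 0.003. Whether complex I differs from these lists was not tested.

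Several complex I genes were left out by the rule or were not matched. A total of 6 probe sets name a complex I gene among several genes, those of Ndufs1, Ndufs5, Ndufs6, Ndufb2 and Ndufb4 among them, and were not used, since their signal cannot be assigned to 1 gene. The accessory subunits Ndufs6, Ndufb1, Ndufb2 and Ndufb4, the mitochondrially encoded mt-Nd subunits and the assembly factor Coa1 were not analysed here. Of the 3 members with a second probe set, Ndufa8 and Ndufa12 gave ketamine differences of one sign in both (-0.07 and -0.04 for Ndufa8, -0.18 and -0.14 for Ndufa12). The dimmer probe set of Ndufa11 gave 0.11 against -0.14 for the brighter.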

How the data were processed

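The labels' protocols and the submitters' processing notes describe Affymetrix arrays read with Expression Console 1.1.1 and summarised with PLIER 2.0. The deposited values are linear intensity values per probe set, as the authors made them. Any further normalization and the genome build were not given in the sources used here. Of 41345 probe sets, 23521 carried 1 gene symbol, 1814 several and 16010 none, and the brightest of each gene gave 22180 genes. Symbols were updated by Entrez ID. Values were taken as log2(intensity + 16) without rescaling. Groups were compared with limma 3.58.1 in R 4.3.3 (lmFit and eBayes over all 9 arrays, 6 residual degrees of freedom), with two-sided p-values and Benjamini-Hochberg adjustment at 0.05. The fit was tested on simulated data.

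Members and lists were chosen with earlier results of these data known. Named subunits were those with the 4 smallest p-values of a comparison, the core subunits, Ndufa4, Ndufa4l2, Ndufab1 and all Ndufaf genes. Subunits whose arrays did not overlap were described as well. Alternatives were other offsets, scalings, filters, weights, designs and each array left out. Arrays limit the precision by their number.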

Additional observations from a re-analysis of the deposited data

How the results depend on the processing

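The 75th percentile centring and the genes of like intensity were chosen after seeing the data. Over the complex I genes named by rule, 1164 comparisons by setting kept direction and side of an adjusted p of 0.05, 72 changed sign and 3 passed that threshold. In the main fit the smallest adjusted p of any subunit was 0.488 by limma, so staying above 0.05 says little about stability. The tally does not cover unadjusted p-values, several of which crossed 0.05 between settings. With array weights (ketamine array 2 weighted 7.9), 1439 genes (6.49% of all) were called in ketamine against saline, among them Ndufa2 at -0.35 (adjusted p by limma 0.0200), Ndufs5 at -0.24 (0.0335) and Ndufaf2 at -0.40 (0.0372). There 15 subunits (44.1%) had an unadjusted p under 0.05, against 27.4% of all genes. That count was 5 (14.7%, against 8.41% of all genes) in a fit of the 2 groups alone, 1 after centring on the 75th percentile and 0 to 4 leaving out 1 array. For ketamine against sleep deprivation it was 3 with array weights (18.7% of all genes passed), 2 with the replicate block, 0 after that centring and 0 to 6 leaving out 1 array. For sleep deprivation against saline it was 1 with an offset of 64, quantile normalization, the dimmest genes left out, limma-trend, array weights, the replicate block and that centring, and 0 to 1 leaving out 1 array.

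Over all genes, limma called 14 with an offset of 64, 5 without the dimmest genes, 15 with limma-trend and 42 with array weights in ketamine against sleep deprivation, and 1 with median centring and 3 with limma-trend in sleep deprivation against saline. Leaving out 1 array gave 0 to 0, 0 to 214 (without sleep-deprived array 3) and 0 to 4 (without sleep-deprived array 2) in ketamine against saline, ketamine against sleep deprivation and sleep deprivation against saline. The causes were not tested.

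Leaving out 1 array, subunit medians ran from -0.167 to -0.075, -0.147 to 0.007 and -0.113 to 0.042 in that order, and assembly factor medians from -0.175 to -0.057, -0.183 to -0.034 and -0.134 to 0.015.

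Deviations of same-numbered arrays correlated from -0.201 to 0.444, the highest between ketamine array 3 and sleep-deprived array 3. With 3 arrays in each group and different array scales, these values cannot decide whether replicate numbers pair the samples. The main fit used the group only. With the replicate block, the ketamine against saline p was 0.0187 for Ndufa2, 0.0406 for Ndufs5, 0.0378 for Ndufab1 and 0.0360 for Ndufaf5, and the ketamine against sleep deprivation p was 0.0162 for Ndufb11.

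Signs changed as follows. After centring on the 75th percentile, ketamine minus saline was 0.04 for Ndufa4, 0.03 for Ndufa4l2, 0.05 for Ndufaf4, 0.01 for Ndufaf8 and 0.02 for Ndufs7, and ketamine minus sleep deprivation 0.06 for Ndufaf3, 0.01 for Ndufaf6, 0.02 for Ndufaf7 and 0.07 for Ndufs3, Ndufs7 and Ndufs8. After quantile normalization, Ndufaf4 was 0.05 in the first, and in the second Ndufa4l2 was -0.04, Ndufaf3 0.07, Ndufaf7 0.03, Ndufs3 0.07, Ndufs7 0.04 and Ndufs8 0.05. With array weights, Ndufaf4 was 0.01 in the first, and in the second Ndufa4l2 was 0.00, Ndufaf3 0.03, Ndufaf8 -0.02, Ndufs3 0.01, Ndufs7 0.07 and Ndufs8 0.06. Ndufaf2 was 0.00 in sleep deprivation minus saline with an offset of 64, and Ndufv1 -0.01 in ketamine minus sleep deprivation with median centring.

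Leaving out 1 array, sleep deprivation minus saline ran from -0.14 to 0.03 for Ndufa2, -0.19 to 0.06 for Ndufa4, -0.03 to 0.17 for Ndufaf1, -0.2 to 0.14 for Ndufaf2, -0.17 to 0.03 for Ndufaf3, -0.16 to 0.05 for Ndufaf5, -0.07 to 0.03 for Ndufs1, -0.11 to 0.06 for Ndufs7 and -0.05 to 0.06 for Ndufv2. Ketamine minus saline ran from -0.12 to 0.04 for Ndufa4, -0.17 to 0.01 for Ndufaf3 and -0.09 to 0.04 for Ndufaf4. Ketamine minus sleep deprivation ran from -0.1 to 0.15 for Ndufa4, -0.04 to 0.07 for Ndufa4l2, -0.08 to 0.08 for Ndufaf3, -0.12 to 0.01 for Ndufaf6, -0.11 to 0.02 for Ndufaf7, -0.06 to 0.05 for Ndufaf8, -0.13 to 0.07 for Ndufs3, -0.11 to 0.06 for Ndufs7, -0.07 to 0.03 for Ndufs8 and -0.04 to 0.06 for Ndufv1.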
